A study of Mus musculus with 50 samples.

Results

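Transcripts of the metallothionein genes Mt1 and Mt2 and of the zinc importer gene Slc39a14 were followed in the gastrocnemius, a hindlimb muscle, of 50 mice of 6 ages. These are 3 of the 23880 genes in the deposited tables and were taken by their gene symbols, and all 3 passed the filter on low counts that left 12586 genes. They were chosen by their measured rise between 8 and 28 months in these same libraries, where Mt2 had one of the largest increases, so their levels at 8 and 28 months are given as a description, without a test. All mice were wild-type C57BL/6JRj males, an inbred strain, from one aging colony, each caged alone and fed the purified diet AIN-93M. The groups of 8, 18, 22 and 24 months held 8 mice each, those of 26 and 28 months held 9, and every mouse gave 1 library. Mice of 8 and 18 months had at least 2 months to adapt to the diet, and mice of 22 to 28 months ate it from 18 months of age or shortly after, so diet history and age cannot be told apart between these sets. According to the study's methods, animals with visible illness or tumors were not used.

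Metallothioneins are small proteins rich in cysteine that bind zinc and copper and buffer free zinc in the cell. Their genes are switched on by zinc through the transcription factor MTF1, which binds metal response elements (MREs) in their promoters, and also by glucocorticoids and by inflammatory signals. Slc39a14 encodes ZIP14, a transporter at the cell surface that brings zinc, and also iron and manganese, into cells, is induced in the liver by interleukin-6, and has been linked to muscle wasting in cancer.

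Mt1 and Mt2 are neighbours and close copies, so their coding sequences show how far reads could be told apart. In GRCm38, Mt2 (ENSMUSG00000031762) lies on the plus strand at chr8:94172664-94173568 and Mt1 (ENSMUSG00000031765) at chr8:94179082-94180327, with 5513 bases between them and 3 exons in each. Slc39a14 (ENSMUSG00000022094) lies on the minus strand at chr14:70303469-70351425. The coding sequences of Mt1 and Mt2, joined over the exons and read 5′ to 3′ from GENCODE vM21, are given here, and the capitals mark the bases at which they differ from each other.
Mt1: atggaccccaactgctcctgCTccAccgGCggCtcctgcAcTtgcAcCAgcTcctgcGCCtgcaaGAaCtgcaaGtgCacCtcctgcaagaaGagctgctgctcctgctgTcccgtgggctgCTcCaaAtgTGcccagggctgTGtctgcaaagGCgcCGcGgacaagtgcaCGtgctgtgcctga
Mt2: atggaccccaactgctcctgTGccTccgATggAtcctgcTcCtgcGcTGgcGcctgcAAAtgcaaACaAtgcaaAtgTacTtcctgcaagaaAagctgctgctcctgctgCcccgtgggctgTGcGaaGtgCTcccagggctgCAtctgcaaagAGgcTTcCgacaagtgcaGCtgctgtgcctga
Both held 186 bases with 61 codons before the stop, they differed at 38 bases (79.6% identity), and 20 cysteine codons stood at the same places in both. The longest run of identical coding bases was 20. None of the 761 distinct runs of 31 bases in the Mt1 transcripts, of the 573 in Mt2 or of the 2438 in Slc39a14 occurred in a transcript of another protein-coding gene with support level 1 to 3 in that annotation. Reads of one member could thus be mistaken for another gene only over stretches shorter than 31 bases, in an annotation on the same build as that of the authors but of another release.

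The promoters of Mt1 and Mt2 are shown because the MRE, the site of MTF1, can be read in them. They are 280 bases each from the RefSeq table for GRCm38.p6, plus strand, with 250 bases before the RefSeq start and 30 after, Mt1 at chr8:94178839-94179118 and Mt2 at chr8:94172368-94172647, and the capitals mark the MRE core.
Mt1: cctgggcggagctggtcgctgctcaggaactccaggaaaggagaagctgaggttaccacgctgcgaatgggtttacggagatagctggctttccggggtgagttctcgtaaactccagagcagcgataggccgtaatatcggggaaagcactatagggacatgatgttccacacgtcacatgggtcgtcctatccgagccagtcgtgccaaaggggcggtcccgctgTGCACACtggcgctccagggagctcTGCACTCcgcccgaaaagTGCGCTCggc
Mt2: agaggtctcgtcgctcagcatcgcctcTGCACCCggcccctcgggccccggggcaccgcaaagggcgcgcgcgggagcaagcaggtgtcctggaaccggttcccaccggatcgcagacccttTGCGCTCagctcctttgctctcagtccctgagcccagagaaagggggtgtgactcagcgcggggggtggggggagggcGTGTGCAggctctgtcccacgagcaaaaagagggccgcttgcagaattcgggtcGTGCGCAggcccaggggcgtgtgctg
The MRE core was searched as TGCACNC or TGCGCNC on both strands, over 300 bases with 50 after the start. Mt1 held 3 matches, with first bases at -23, 3 and 21 from the RefSeq start. Mt2 held 4, at -223, -128, -50 and 5. Of 32817 promoters of this length, 25.7% held at least 1 match, 1.97% at least 3 and 0.518% at least 4. Because MREs are known from metallothionein promoters, these shares are a description and not a test. The promoters of Mt3 and Mt4, other metallothionein genes, held 1 match each. The antioxidant response element core TGACNNNGC had 1 match in Mt2, at -79, and none in Mt1, against 12.4% of all promoters. Neither promoter held AGAACA, the core of the glucocorticoid receptor element (19.0% of all promoters), or the STAT palindrome TTCNNNGAA (8.29%). The TATA box TATAAA was also searched and had no match in the 300 bases of either (13.6%), which does not show that these genes lack one. No MRE match overlapped one of the other motifs, and a match of letters does not show that a factor was bound there. The Mt2 bases shown end before the gene start of 94172664 given above, so the positions hold only for the RefSeq starts. Mt1 and Mt2 have 2 transcripts each in the annotation used above, and starts other than the RefSeq one were not searched. Sites outside the bases searched were not looked for, so neither the MREs nor the TATA box of these genes are fully listed here.

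Levels are CPM, the counts of a gene scaled to the library total with TMM factors, so that mice can be compared for one gene. Mt1 was between 10.1 and 31.5 CPM in the mice of 8 months, with a median of 14.4. At 18 months it ranged from 7.52 to 37.5 (median 21.6). The 22-month mice spanned 7.03 to 23.1 (median 13.2), and the 24-month mice 9.09 to 29.3 (median 16.5). At 26 months the lowest mouse had 33.3 CPM, the median was 49.7 and the highest was 102.5. All 9 mice of 26 months were thus above every mouse of 22 and 24 months, which held for 0.493% and 0.0874% of the genes tested. They were also above every mouse of 8 months (1.49% of genes), a description, since the members were picked with that age. Of the 9, 7 were above every mouse of 18 months. Shares of all genes were taken only where every mouse of the older age was above. At 28 months the range was much wider, from 9.22 to 546.2 CPM with a median of 47.0. Replicates 3 and 4 of 28 months, at 9.22 and 9.96 CPM, were lower than every mouse of 8 months, whereas replicates 1 and 2 reached 242.6 and 546.2. The levels of the 18-month mice fell into 4 between 7.52 and 13.9 CPM and 4 between 29.3 and 37.5 CPM.

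**Figure D1:**
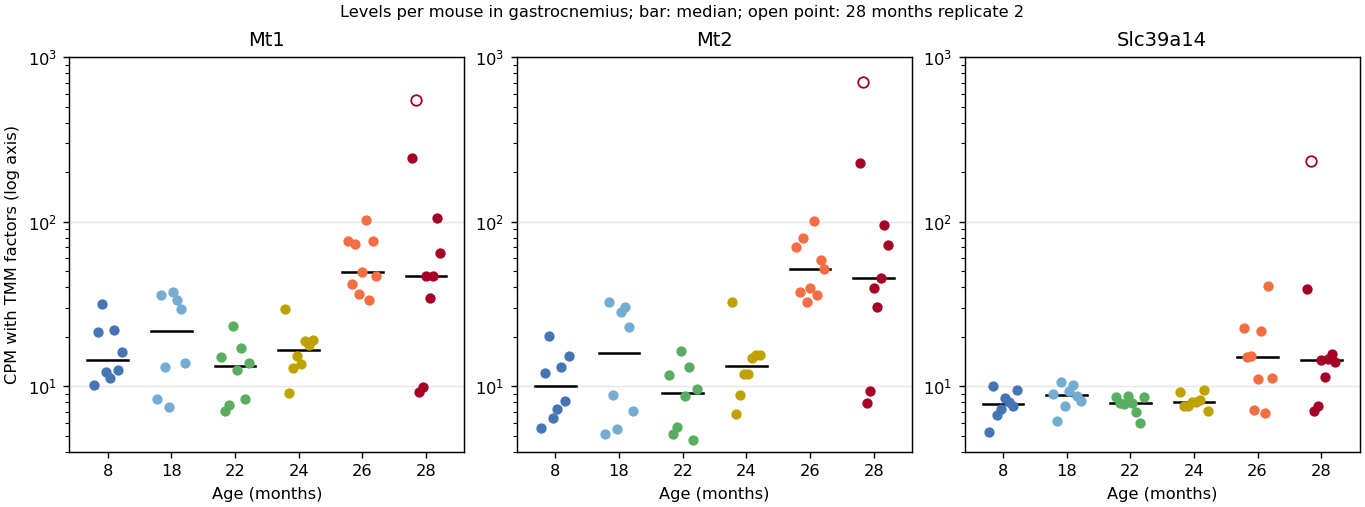
CPM (log axis) of Mt1, Mt2 and Slc39a14 in each of 50 mice against age in months; points are mice, bars are medians and the open point is replicate 2 of 28 months. Mt1 and Mt2 stay below 40 CPM up to 24 months and start at 33.3 and 32.4 CPM at 26 months, while the mice of 28 months span from 9.22 to 546.2 CPM for Mt1.

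Mt2 moved through the ages in the same way. Its median was 10.1 CPM in the 8-month mice (range 5.54 to 20.3) and 15.9 in the 18-month mice (range 5.12 to 32.4). The 22-month mice had a median of 9.15 CPM (range 4.71 to 16.3) and the 24-month mice one of 13.3 (range 6.79 to 32.5). At 26 months the median was 51.7 CPM, with a range from 32.4 to 100.6. All 9 mice of 26 months were above every mouse of 8 and 22 months, which held for 1.49% and 0.493% of the genes tested. The part with 8 months is a description, since Mt2 was picked with that age. Only 8 of 9 were above every mouse of 24 months, since replicate 1 of 24 months had 32.5 CPM against 32.4 in the lowest mouse of 26 months. The mice of 28 months had a median of 45.8 CPM and a range from 7.86 to 701.3, and the lowest and the highest were the same mice as for Mt1. The order of ages by the mean put 28 months first for Mt1 (123 ± 174 CPM, SD, n = 9), above 26 months (59.5 ± 23.5, n = 9), but the order by the median put 26 months first. Neighbours in the order among 8, 18, 22 and 24 months, with means from 13.1 to 22.4 CPM and SDs from 5.46 to 12.9, differed by less than 1 SD.

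Slc39a14 stayed between 5.30 and 10.7 CPM in all mice up to 24 months and spread out in the older ones. Its median was 7.78 CPM in the 8-month mice (range 5.30 to 10.01), 8.89 in the 18-month mice (range 6.15 to 10.7), 7.93 in the 22-month mice (range 6.02 to 8.74) and 8.00 in the 24-month mice (range 7.05 to 9.49). The 26-month mice had a median of 15.0 CPM (range 6.87 to 40.5) and the 28-month mice one of 14.5 (range 7.09 to 232.6). In both of the oldest ages, 7 of 9 mice were above every mouse of 8 to 24 months. The other mice were replicates 4 and 7 of 26 months (7.21 and 6.87 CPM) and replicates 3 and 4 of 28 months (7.09 and 7.58 CPM), and the latter pair were the lowest of their age for Mt1 and Mt2 as well. These counts are a description, because the gene was picked with the mice of 8 and 28 months. The share of all genes with such counts was not taken. In a muscle sample, fewer cells of a type and less RNA per cell cannot be told apart.

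Replicate 2 of 28 months stood apart from its age and set the 28-month means. Mt1 and Mt2 together had 5025 TPM (a level per transcript length, scaled to the same total in every library) in this mouse, 0.503% of all its TPM, against a range from 57.4 to 1527 TPM in the other 8 mice of 28 months and a median of 328 at 26 months. Without it, the 28-month means were 70.0 ± 76.2 CPM for Mt1, 66.0 ± 71.6 for Mt2 and 15.5 ± 9.97 for Slc39a14 (SD, n = 8). In the same library the sum of 8 skeletal muscle markers such as Ckm and Acta1 was 150770 TPM, the lowest of the 50 mice, whereas the lowest of the others had 184290. The sum of 8 macrophage markers was 751 TPM there, the highest of the 50 mice (28-month median 384), and that of 6 neutrophil markers such as S100a8 was 284 TPM (median 26.1). The neutrophil sum was not the highest of all mice, since a mouse of 24 months had 294 TPM. The part of these cells in the levels of the members was not tested.

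The step from 24 to 26 months and the difference between 26 and 18 months compare no mouse of the contrast with which the members were picked, and were tested. The fit over all 50 mice still takes part of its estimate of the spread from the mice of that contrast. Its p-values are thus not free of the choice of the members. The exact tests and the fits to the 2 ages alone take the spread from the compared mice only. Between 26 and 24 months the fitted log2 fold change was 1.81 ± 0.48 (SE) for Mt1, 1.94 ± 0.54 for Mt2 and 1.04 ± 0.44 for Slc39a14, which is 3.50-fold, 3.83-fold and 2.06-fold. Ordered by log2 fold change among 12586 genes, they were in places 6, 5 and 56. In edgeR's quasi-likelihood test over all 50 mice, no gene passed FDR 0.01 (0% of genes), and the adjusted p-values were 0.0681, 0.0784 and 0.205. At an unadjusted p under 0.05 this test had 2202 genes, and at FDR 0.01 DESeq2 called 14 genes and limma 0. Fitted to the 2 ages alone, edgeR called 4 genes, among them Mt1 and Mt2, with adjusted p-values of 0.00236 and 0.00421. An exact two-sided permutation test of the mean log2(CPM + 1) over the 9 and 8 mice gave p = 4.11e-05 for Mt1, which is the smallest p it can give, p = 8.23e-05 for Mt2 and p = 0.0103 for Slc39a14. With this test 10.3% of all genes were higher at 26 months at an unadjusted p under 0.05, and 5 genes, Mt1 included, had a p as small as that of Mt1 and 11 one as small as that of Mt2. Adjusted over all genes, the exact p-values were 0.0817 for both metallothioneins and 0.172 for Slc39a14.

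Between 26 and 18 months the log2 fold changes were 1.41 ± 0.47 for Mt1, 1.68 ± 0.53 for Mt2 and 0.94 ± 0.44 for Slc39a14. None of the 3 passed FDR 0.01 in edgeR (adjusted p = 0.0250, 0.0189 and 0.103), while 10.1% of all genes did, 5.39% as higher and 4.68% as lower. The exact permutation test gave p = 0.000411, 8.23e-05 and 0.0233, beside 19.3% of genes that were higher at an unadjusted p under 0.05, and adjusted over all genes these were 0.0109, 0.00790 and 0.0816. In the fit without replicate 2 of 28 months, a mouse of neither age that adds to the shared estimate of the spread, the SE of Slc39a14 was 0.24 and all 3 passed FDR 0.01, with log2 fold changes of 1.41, 1.68 and 0.94 and adjusted p-values of 0.00781, 0.00442 and 0.00456. When replicate 8 of 26 months, which had the most Slc39a14 of its age, was left out, the change of this gene was 0.66 with an adjusted p of 0.275.

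The steps between 18, 22 and 24 months were smaller than the spread between mice. From 18 to 22 months the log2 fold changes were -0.77 ± 0.49 for Mt1, -0.90 ± 0.56 for Mt2 and -0.16 ± 0.46 for Slc39a14 (edgeR adjusted p = 0.999 for each, with 0.00795% of genes past FDR 0.01). From 22 to 24 months they were 0.37 ± 0.49, 0.64 ± 0.56 and 0.06 ± 0.46, with adjusted p-values of 0.9998, and no gene passed (0%), 478 genes had an unadjusted p under 0.05, and DESeq2 and limma also called 0. The exact permutation p-values of these 6 tests lay between 0.0782 and 0.493, beside 5.9% and 6.9% of all genes with an unadjusted p under 0.05. The exact test was made 12 times in all for the members, 3 genes in 4 comparisons.

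**Figure D2:**
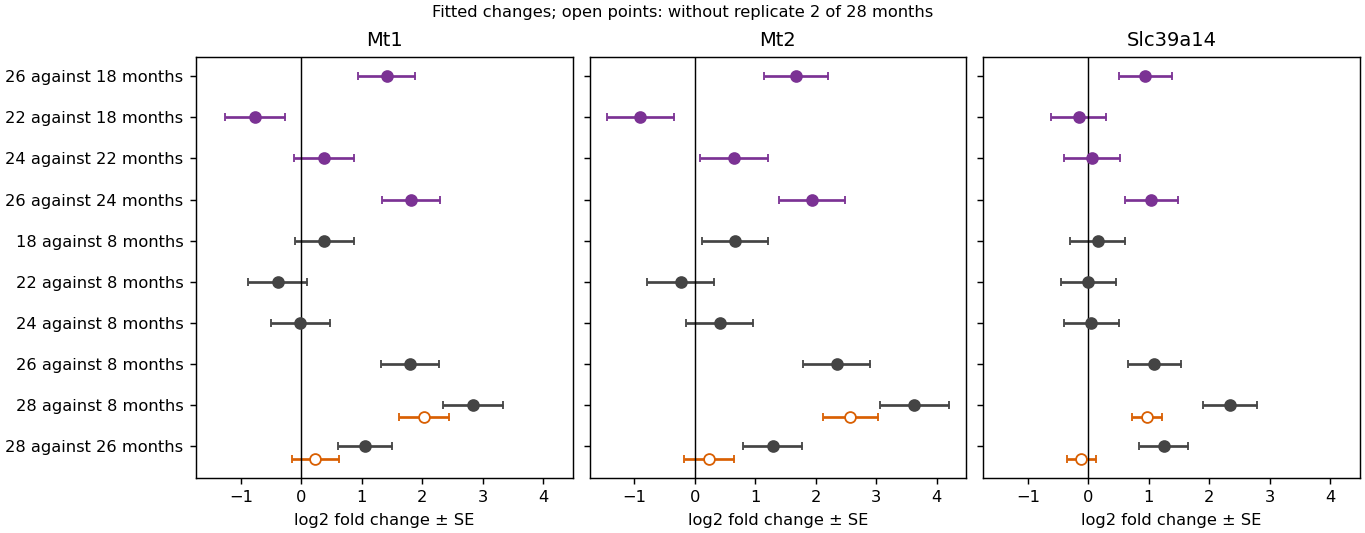
Fitted log2 fold changes (points) with SE (bars) of the 3 genes in 10 comparisons of ages; the first 4 comparisons (purple) were tested, the others (grey) are descriptions, and open points leave out replicate 2 of 28 months. The values for 26 against 24 months are 1.81, 1.94 and 1.04, and those for 28 against 26 months move from 1.05, 1.28 and 1.25 to 0.23, 0.23 and -0.12 without that mouse.

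The contrasts with 8 months and of 28 with 26 months are descriptions. Against 8 months, the log2 fold change of Mt2 was 0.67 at 18 months, -0.24 at 22 months, 0.41 at 24 months, 2.34 at 26 months and 3.63 at 28 months, the last being 12.4-fold. Without replicate 2 the 28-month value was 2.57 ± 0.46. For Mt1 the values at 26 and 28 months were 1.79 and 2.84, and 2.02 without that mouse. For Slc39a14 they were 1.09 and 2.34, and 0.97 without it. Among 12586 genes ordered by log2 fold change of 28 against 8 months, Mt2, Mt1 and Slc39a14 stood in places 7, 23 and 44, and 39.6% of genes passed FDR 0.01 there. Between 28 and 26 months the log2 fold changes of 1.05 for Mt1, 1.28 for Mt2 and 1.25 for Slc39a14 came down to 0.23 ± 0.38, 0.23 ± 0.41 and -0.12 ± 0.24 when replicate 2 was left out.

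Mt1 and Mt2 varied together from mouse to mouse. As deviations from the mean of each age, in log2(CPM + 1), they had Pearson r = 0.985 and Spearman rho = 0.963 over 50 mice, given as a description because the mice of 8 and 28 months are among them. Without the pair of mice farthest from the median, r was 0.975. Within single ages r lay between 0.918 and 0.997. Slc39a14 followed them less closely, with r = 0.749 and rho = 0.519 for Mt1 and r = 0.729 and rho = 0.517 for Mt2. These came to r = 0.582 and 0.526 without the farthest pair and to 0.636 and 0.582 without replicate 2 of 28 months. By age, r between Mt1 and Slc39a14 was 0.26 at 8 months, -0.04 at 18 months, 0.44 at 22 months, 0.55 at 24 months, 0.82 at 26 months and 0.90 at 28 months, and between Mt2 and Slc39a14 it was 0.40, -0.07, 0.53, 0.62, 0.66 and 0.92. Without replicate 2 the 28-month values were 0.95 and 0.94. The difference between these r values, each over 8 or 9 mice, was not tested. Over the 33 mice of 18 to 26 months alone, a set chosen after the data were seen, Mt1 and Mt2 had r = 0.971 and rho = 0.959 (permutation p = 1e-05 both times, the smallest that 100000 permutations can give, adjusted over 3 relations 3e-05). There Mt1 and Slc39a14 had r = 0.406 (permutation p = 0.0167, adjusted 0.0251) and rho = 0.453 (permutation p = 0.00906, adjusted 0.0136). For Mt2 and Slc39a14, r = 0.310 missed the threshold of 0.05 (permutation p = 0.0780, adjusted 0.0780), while rho = 0.423 passed it (permutation p = 0.0147, adjusted 0.0147). Without the 2 mice farthest from the median these r values were 0.965, 0.445 and 0.331.

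**Figure D3:**
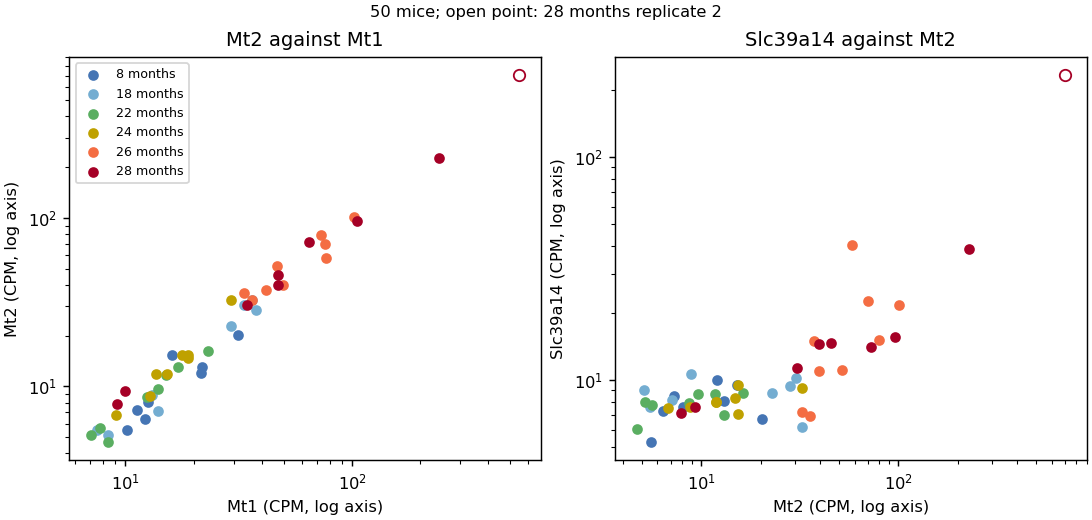
CPM of Mt2 against Mt1 (left) and of Slc39a14 against Mt2 (right) in 50 mice, both axes logarithmic, coloured by age; the open point is replicate 2 of 28 months. Mt1 and Mt2 lie along one line through all ages (r = 0.985 as deviations from the age means), whereas Slc39a14 stays near 8 CPM in the younger mice and spreads up to 232.6 CPM in the mice with high Mt2.

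Although Mt1 and Mt2 were so closely tied, their mean ratio was not the same at every age in these mice. The ratio of their TPM values, Mt2 over Mt1, was examined after the data were seen. The p-values given for it thus rest on the same values that led to it, and are not independent support. It was between 0.615 and 0.766 in 7 of the 8 mice of 8 months and 1.11 in the other, with a mean of 0.751 ± 0.157 (SD, n = 8). The means were 0.860 ± 0.163 at 18 months, 0.828 ± 0.0798 at 22 months, 0.971 ± 0.150 at 24 months (n = 8 each), 1.11 ± 0.151 at 26 months and 1.13 ± 0.170 at 28 months (n = 9 each). Mt2 was above Mt1 in 0 of 8 mice at 22 months and in 7 of 9 at 26 months. In exact permutation tests of the log2 ratio, 26 months was higher than 18 months by 0.38 (p = 0.00531, adjusted over 5 comparisons 0.0133) and higher than 22 months by 0.42 (exact p = 0.000288, adjusted 0.00144), and 24 months was higher than 22 months by 0.22 (exact p = 0.0159, adjusted 0.0264). From 24 to 26 months the difference was 0.20 (exact p = 0.0671, adjusted 0.0838) and from 18 to 22 months -0.04 (exact p = 0.757). With single mice left out, the difference between 26 and 24 months lay between 0.16 and 0.26, with exact p-values from 0.0108, without replicate 1 of 24 months, whose ratio of 1.30 was the highest of its age, to 0.129, without replicate 3 of 24 months. Replicates 3 and 4 of 28 months, with the lowest Mt1 of their age, had ratios of 0.990 and 1.09.

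**Figure D4:**
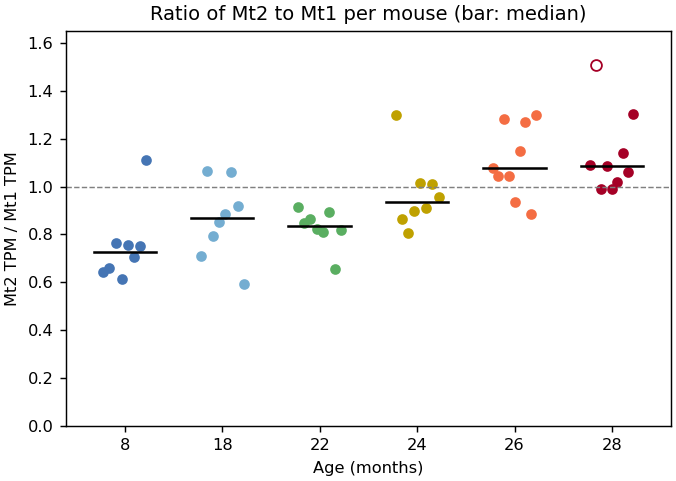
Ratio of Mt2 TPM to Mt1 TPM (linear axis) in each of 50 mice against age in months; points are mice, bars are medians, the dashed line is a ratio of 1 and the open point is replicate 2 of 28 months. The medians are 0.728 at 8 months, 1.08 at 26 months and 1.09 at 28 months.

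The other metallothionein genes had low levels. Mt3, known mainly from brain, had means between 0.991 and 1.70 CPM, with a log2 fold change of 0.06 ± 0.37 between 28 and 8 months (edgeR adjusted p = 0.895) and -0.42 ± 0.35 between 26 and 18 months (adjusted p = 0.375). On the scale of TPM its mean at 26 months was 4.28 ± 1.28, against 183 ± 77.3 for Mt1 and 203 ± 90.7 for Mt2 (SD, n = 9). Mt4, a gene of stratified epithelia, had a highest level of 0.168 CPM in any mouse and did not pass the filter. Mtf1, the gene of the zinc-sensing factor, was 23.8 ± 4.09 CPM at 8 months and 28.5 ± 2.60 at 28 months, a log2 fold change of 0.26 ± 0.08 (edgeR adjusted p = 0.00420), and changed by 0.02 ± 0.08 between 26 and 18 months (adjusted p = 0.840), when Mt1 and Mt2 were higher by 1.41 and 1.68.

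Of the other zinc importers, 10 of 13 could be tested. Between 28 and 8 months, where 21% of all genes were higher and 18.7% lower at FDR 0.01, Slc39a8, a close relative of Slc39a14, rose (log2 fold change 0.76, adjusted p = 0.00448), and the surface importers Slc39a1 (-0.41, 0.000102) and Slc39a3 (-0.36, 0.000284) fell. Slc39a8 had a low level, with means of 1.05 CPM at 8 months and 1.77 at 28 months. Replicate 2 of 28 months had 3.60 CPM, and the 28-month mean without it was 1.55. The other importers, Slc39a2, Slc39a6, Slc39a7, Slc39a9, Slc39a10, Slc39a11 and Slc39a13, had log2 fold changes from -0.20 to 0.26. Over all genes, 5.39% were higher and 4.68% lower at FDR 0.01 between 26 and 18 months. Between 26 and 18 months, Slc39a1 (-0.37, adjusted p = 0.00248) and Slc39a13 (-0.26, 0.00904) fell and none rose, but 1 passed without the filter or without any one of replicates 1, 2, 4, 5 and 7 of 18 months and replicates 1, 4, 6 and 8 of 26 months, and 0 in the fit to the 2 ages. Of 7 zinc exporters tested, Slc30a9 fell between 28 and 8 months (-0.25, adjusted p = 0.000815; 0 exporters passed with limma or in the fit to the 2 ages, and 2 with upper-quartile factors or without replicate 1 of 8 months), and Slc30a1, the surface exporter that like Mt1 is a target of MTF1, had a log2 fold change of 0.27 ± 0.11 (adjusted p = 0.0393). The other exporters, Slc30a2, Slc30a4, Slc30a5, Slc30a6 and Slc30a7, lay between -0.33 and 0.24, and none of the 7 passed between 26 and 18 months. The median over each of these lists, 0.01 for importers and -0.04 for exporters, was close to that of all genes (0.01).

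Factors and target genes of the signals known to act on metallothionein genes were also counted. Over all genes tested, 21% were higher and 18.7% lower at FDR 0.01 between 28 and 8 months. Between 26 and 18 months the shares were 5.39% and 4.68%. Of 8 transcription factors of metal and stress responses, 7 rose between 28 and 8 months and Usf1 fell (-0.27), and among those with a mean of at least 5 CPM the smallest adjusted p were those of Stat3, the factor downstream of interleukin-6 (1.11, adjusted p = 8.45e-06), Nfe2l2, the antioxidant factor NRF2 (1.26, 4.24e-05), and Sp1 (0.58, 0.000350). Without replicate 2 of 28 months 5 of the 8 passed, and 4 in the fit to the 2 ages. Between 26 and 18 months Nr3c1, the glucocorticoid receptor gene (0.52), and Cebpd (2.10) passed, both as higher, with 0 without replicate 1 or replicate 8 of 26 months, 1 with limma or without replicate 2, 5 or 7 of 18 months or replicate 3 of 26 months, and 4 without replicate 2 of 28 months. Cebpd had a low level, with means of 0.711 ± 0.470 CPM at 18 months and 3.07 ± 2.36 at 26 months (SD). Of 14 glucocorticoid-responsive genes, 11 rose and Dusp1 fell (-0.73), with a median log2 fold change of 1.01, and the smallest adjusted p among genes with a mean of at least 5 CPM were those of Glul (2.21, adjusted p = 3.8e-07), Klf15 (1.42, 3.09e-07) and Klf9 (0.82, 9.9e-07). All 3 of these also rose between 26 and 18 months, by 1.53, 0.86 and 0.52, as did 1 further gene of the list, Fkbp5, and 8 genes passed without replicate 6 of 18 months. Of 12 acute phase and interleukin-6 response genes tested, 9 rose between 28 and 8 months, among them the acute phase gene Serpina3n (3.04) and the receptor genes Il6ra (2.17) and Osmr (1.07). Replicate 2 of 28 months had 271 CPM of Serpina3n, and the 28-month mean of this gene was 47.7 CPM with it and 19.7 without it, against 5.81 at 8 months. Of 11 targets of NRF2 tested, 6 rose, including Gclc (0.69), Gsr (0.66) and Hmox1 (1.55). This count was 3 without replicate 1 or 4 of 8 months or replicate 1 of 28 months, 4 without replicate 2 of 28 months, and 1 in the fit to the 2 ages. The mean of Hmox1 at 28 months was 28.2 CPM, and 18.2 without replicate 2, against 9.63 at 8 months. Between 26 and 18 months, Il6ra, Il6st, Osmr and Cebpd rose and Orm1 fell among the acute phase and interleukin-6 genes, 5 in all, with 1 without replicate 1 of 26 months, 2 without replicate 8 of 26 months, 3 with limma on log2(TPM + 1) or without replicate 2 or 5 of 18 months, and 8 without replicate 2 of 28 months. Of the NRF2 targets, Nqo1 had 0.34 (adjusted p = 0.00623) between 26 and 18 months, but 0 targets passed with upper-quartile factors, without the filter, or without any one of replicates 1, 3, 5, 6, 7 and 8 of 18 months and replicates 1, 6, 7 and 8 of 26 months.

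**Figure D5:**
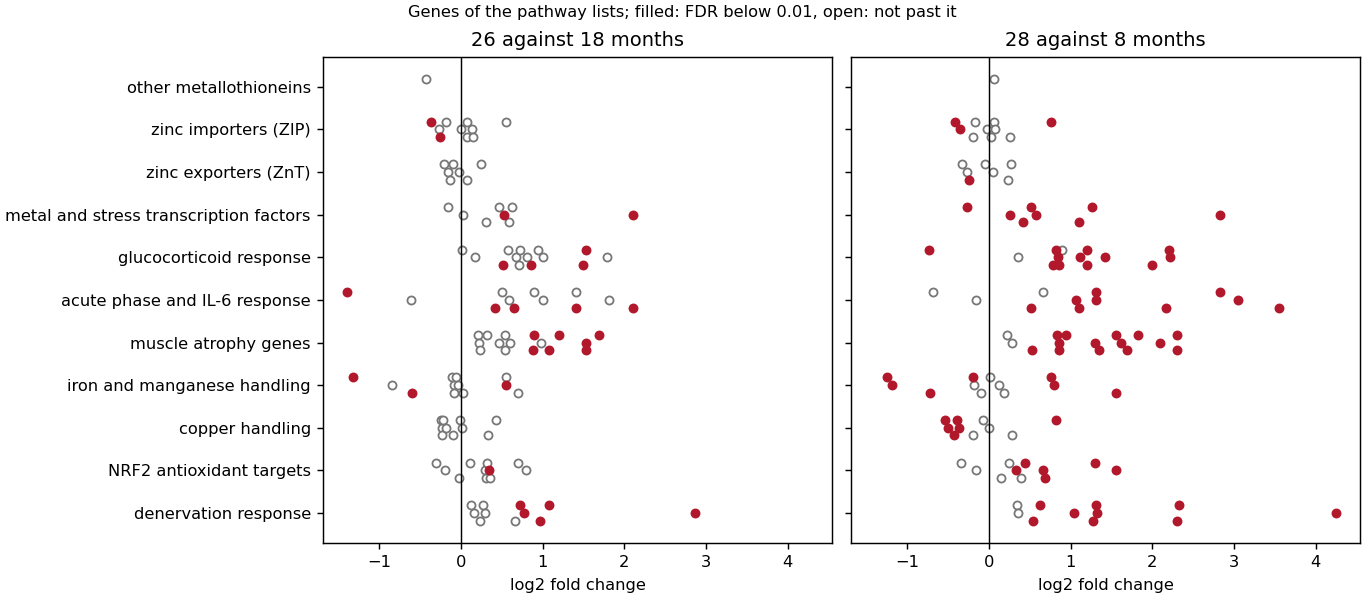
Log2 fold change of each tested gene of 11 lists between 26 and 18 months (left) and 28 and 8 months (right); filled points passed FDR 0.01 and open points did not, and Mt1, Mt2 and Slc39a14 are in no list. Zinc importers and exporters lie around 0, with medians of 0.01 and -0.04 on the right, while the glucocorticoid list has a median of 1.01 and the muscle atrophy list one of 1.33.

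The counts that follow stand beside 21% of all genes higher and 18.7% lower between 28 and 8 months at FDR 0.01. Between 26 and 18 months these shares were 5.39% and 4.68%. Among lists of muscle state and other metals, 14 of 16 muscle atrophy genes rose between 28 and 8 months, and among those with a mean of at least 5 CPM the smallest adjusted p were those of Eda2r (1.55, adjusted p = 7.48e-08), Gadd45a (2.30, 2.15e-07) and Foxo3 (1.35, 7.04e-07). Between 26 and 18 months 7 rose, and 4 without replicate 1 of 26 months. Of 11 genes of the denervation response tested, 9 rose, with Sln, the calcium pump regulator sarcolipin, at 4.25, Runx1 at 2.33 and Chrna1, the acetylcholine receptor alpha subunit, at 1.27, and Sln, Runx1, Chrna1, Chrnb1 and Gadd45a rose between 26 and 18 months. The latter 5 came to 3 without the filter and without any one of replicates 2, 3, 4, 5 and 8 of 18 months or replicates 1, 2, 3, 5 and 8 of 26 months. Of 10 genes of copper, the other metal bound by metallothioneins, 5 fell between 28 and 8 months, namely Commd1 (-0.53), the chaperone Atox1 (-0.50), Cox17, Sco1 and Sco2, and 1 rose, the copper pump Atp7a (0.83). In edgeR 0 passed between 26 and 18 months, and 1 with limma or without replicate 2 of 18 months, replicate 7 of 26 months or replicate 2 of 28 months. Of 12 iron and manganese genes, metals that ZIP14 also carries, Cp, the ferroxidase ceruloplasmin (0.80), Hmox1 (1.55) and Slc39a8 rose between 28 and 8 months, and Steap3, a ferric reductase (-0.72), Tfrc, the transferrin receptor (-1.24), Heph and Aco1 fell, 7 in all, with 4 in limma and 3 in the fit to the 2 ages.

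The genes whose levels followed Mt1 and Mt2 most closely from mouse to mouse were found over 49 mice, without replicate 2 of 28 months, as Pearson r with the mean of Mt1 and Mt2 in deviations from age means. Of 9190 genes with at least 5 CPM on average, the highest after Mt1 and Mt2 were Slc3a2 (0.824), the heavy chain of amino acid transporters, Sdc4 (0.821), the syndecan-4 gene, Pim3 (0.820), a kinase, Slmapos2 (0.810), Nfil3 (0.803) and Foxo1 (0.802), both transcription factors, Ccl6 (0.794), a chemokine, and Il4ra (0.790), an interleukin-4 receptor subunit. The lowest were Gm5113 (-0.805), 2510009E07Rik (-0.777), Nmt2 (-0.754) and Mob1b (-0.737). The median r of all 9190 genes was 0.02 and 95% were below 0.516, and Slc39a14 was in place 158 with 0.611. All these values rest on the same libraries, and they are a description.

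Total counts per mouse ranged from 13607229 to 21267375. The sum of 8 skeletal muscle markers was between 150770 and 236310 TPM in every mouse, and the 5 hepatocyte markers, included because liver makes much Mt1, Mt2 and Slc39a14, summed to at most 1.57 TPM in any mouse. Among markers of other cells, the neutrophil sum had a median of 25.3 TPM at 24 months (range 9.54 to 294) and 35.8 at 26 months (10.4 to 240), and the macrophage sum had medians of 290 and 364 TPM. Of the marker genes of macrophages, neutrophils, lymphocytes, adipocytes, fibroblasts, endothelium, erythroid, Schwann and satellite cells, none passed FDR 0.01 between 26 and 24 months, where no gene did. Over all genes, 5.39% were higher and 4.68% lower at this FDR between 26 and 18 months, and 21% and 18.7% between 28 and 8 months. Between 26 and 18 months, at the same FDR, both neutrophil markers tested were higher (S100a8 by 2.56 and S100a9 by 2.62 on the log2 scale), 4 of 7 fibroblast markers were lower, and 3 of 6 adipocyte markers were lower and 1 was higher, while of the others tested, 8 of macrophages, 1 of lymphocytes, 5 of endothelium, 5 erythroid, 6 of Schwann cells, 4 of satellite cells and 8 of skeletal muscle, 0 passed. Between 28 and 8 months, 5 of 8 macrophage markers, both neutrophil markers, the 1 lymphocyte marker tested and 1 of 5 erythroid markers were higher. In the same comparison 5 of 7 fibroblast markers, 3 of 6 adipocyte markers and 1 of 6 Schwann cell markers were lower, 1 satellite cell marker and 1 skeletal muscle marker were higher and 1 of each lower, and 0 of 5 endothelial markers passed. The part of these cells in the levels of the members and of the list genes was not tested.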

How the data were processed

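RNA of 50 gastrocnemius muscles was read as stranded paired-end libraries. The authors trimmed reads with Cutadapt 1.9.1 and assigned them with kallisto 0.43.1 to protein-coding transcripts on GRCm38. Reads with more than 1 matching transcript were split in equal parts. The deposited counts are sums over the transcripts of a gene, without normalization, and are whole numbers. The deposited TPM values were made by the authors from counts divided by transcript length. How split reads became whole counts is not given in the sources used here. Groups follow the age in the labels.

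Counts were fitted with edgeR 4.0.16 in R 4.3.3 (TMM, quasi-likelihood test, 1 fit over 6 ages, genes reaching 1 CPM in 8 or more mice, Benjamini-Hochberg, FDR 0.01). Exact tests permuted mice, two-sided, at 0.05. Alternatives were DESeq2 1.42.0, limma 3.58.1 on log2(TPM + 1) and log2(TPM + 0.1), upper-quartile factors, no filter, fits to 2 ages alone, a block for the replicate number, and leaving out single mice. Procedures were tested on simulated data. Total counts had a median of 1.65e+07, and any 2 mice of one age differed by at least 6.44 times the counting variance. Named genes were the members, Mt3, Mt4 and Mtf1, the 3 genes of each list with the smallest FDR between 28 and 8 months at a mean of at least 5 CPM, all tested zinc transporters, and the 8 highest and 4 lowest in correlation; genes named as the remaining or sole call of a list were chosen after their values were seen. The members and the lists, written from general knowledge, were chosen with earlier results of these data known. The labels repeat replicate numbers in each age, and nothing states that they pair mice.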

Additional observations from a re-analysis of the deposited data

Results flagged for a closer look

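Of 30 groups of mice looked at, 6 ages of Mt1, Mt2, Slc39a14, Mt3 and Mtf1, 5 held a mouse far from the others of its age by Dixon's criterion. Chance alone meets it in about 5% of groups when values are normally distributed. It was applied to CPM without logarithms, for which that share need not hold. Of the 5 mice flagged, 3 are the same mouse of 28 months, in values with which the members were chosen, so the count is not set against that share. Replicate 2 of 28 months had 546.2 CPM of Mt1, 701.3 CPM of Mt2 and 232.6 CPM of Slc39a14, with gaps to the next mouse of 0.565, 0.684 and 0.860 of the range of the age, against a critical value of 0.493. Replicate 8 of 26 months had 40.5 CPM of Slc39a14 (gap 0.530 of the range), and its Mt1 of 76.8 CPM was within the range of its age. Replicate 1 of 24 months had 32.5 CPM of Mt2 (0.664, critical value 0.526), above the lowest mouse of 26 months.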

How the results depend on the processing

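No result past its threshold changed direction under the alternatives run. With limma on log2(TPM + 1), the log2 fold change of Mt2 between 26 and 18 months was 1.92 and passed FDR 0.01 (adjusted p = 0.00824), those between 28 and 8 months were 2.48 for Mt2 and 1.29 for Slc39a14, and those between 28 and 26 months were 0.13 and 0.38. With log2(TPM + 0.1) the first 3 were 1.95, 2.51 and 1.37. In fits to the 2 ages compared, which hold fewer mice, Mt1 and Mt2 passed between 26 and 18 months (1.41 and 1.67) and between 26 and 24 months (1.80 and 1.93), and 45 list genes in place of 70 passed between 28 and 8 months. The exact test, at an unadjusted 0.05, passed all 3 genes between 26 and 18 months (1.51, 1.85 and 0.69) and between 26 and 24 months (1.72, 1.89 and 0.77), beside 19.3% and 10.3% of all genes that were higher by it. Adjusted over all genes, its p-values were 0.0109, 0.00790 and 0.0816 in the former and 0.0817, 0.0817 and 0.172 in the latter. Over the mice of 18 to 26 months alone, added after seeing the data, r of Mt2 and Slc39a14 was 0.310 and no longer passed. The cause of these moves was not tested.

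With 1 mouse left out, the log2 fold change between 26 and 18 months ranged from 1.27 to 1.56 for Mt1, from 1.52 to 1.86 for Mt2 and from 0.66 to 1.04 for Slc39a14, and passed FDR 0.01 only without replicate 2 of 28 months. Between 28 and 8 months it ranged from 2.57 to 3.81 for Mt2 and from 0.97 to 2.48 for Slc39a14, and between 28 and 26 months from 0.23 to 1.44 for Mt2 and from -0.12 to 1.52 for Slc39a14, with each lowest value without replicate 2 of 28 months. The list genes past FDR 0.01 between 26 and 18 months, 27 in all, ranged from 14 without replicate 1 of 26 months to 36 without replicate 2 of 28 months, with 17 without replicate 8 of 26 months.

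Mice of different ages that share a replicate number had correlations of their deviations from -0.61 to 0.43 over 121 pairs (median 0.062). The median over pairs of different ages with unlike numbers was -0.007. Averaged over the mice of each number, 12 of 50 mice correlated best with their own number, a count not set against chance. The labels state no pairing, so the numbers were not taken as one. With the replicate block, Mt2 changed by 1.77 between 26 and 18 months (adjusted p = 0.0153) and by 1.96 between 26 and 24 months (0.0733), and the block changed no call of the members. Mt4 and low zinc transporters are at a few counts at most, so changes in them were not detectable at this depth.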
